A study of Mus with 2 samples.

Results

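The genes described here are 9 myeloid C-type lectin receptors of the Dectin-1 and Dectin-2 gene clusters and their close relatives, namely Clec7a (Dectin-1), Clec4n (Dectin-2), Clec4d (MCL), Clec4e (Mincle), Clec4a1, Clec4a2, Clec4a3, Clec5a and Clec12a. They were chosen by name, through the RefSeq transcript to which the array maker had assigned each probe. Of the 9 genes, 8 had a matched probe, out of 20144 genes with a matched probe in all, and all 8 were among the 13533 genes measured. Clec7a had no matched probe and was not analysed here. Of the 39429 probes on the array, 26581 had a transcript accession that the annotation paired with a gene, and a probe for Clec7a may be among the others. The cells were bone marrow-derived macrophages (BMDMs), here from male C57BL6/J mice aged 10 weeks, obtained by culturing marrow for 7 d with 10 ng/mL of M-CSF. Both groups then received 10 ng/mL of IL-4 for 24 h, which are M2 conditions. One culture had DMSO, the solvent, and the other had 10 µM GW4064, a synthetic agonist of the farnesoid X receptor (FXR). Each group was 1 array of RNA from cultured cells, and the number of mice behind a culture was not given in the sources used here. The comparison asked how the receptor genes differed when the agonist was present during M2 polarization.

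C-type lectin receptors are surface proteins with which macrophages recognise sugars and lipids of fungi, mycobacteria and dying cells. Dectin-2, MCL and Mincle signal through the adaptor FcRγ (Fcer1g), and Clec5a pairs with the adaptor DAP12 (Tyrobp). Dectin-1 carries its own activating motif, and from these receptors the kinase Syk and the scaffold Card9 lead to NF-κB and cytokine genes. Clec4a2 (DCIR) and Clec12a (MICL) carry inhibitory motifs that recruit phosphatases such as Ptpn6, so the family holds both activating and inhibitory receptors.

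RNA was read on 1-colour Agilent arrays as the brightness of each spot, and the authors' files hold this signal after background subtraction. Values are log2 signals from which each array's own 75th percentile was taken away (a signal of 1209 with DMSO and of 1265 with GW4064), and a difference is the GW4064 value minus the DMSO value. With 1 array per condition no test was possible, no replicate error exists, and sizes of 1.5-fold and 2-fold served as thresholds. Each of the 8 receptor genes was read by 1 probe printed at 1 spot, unmarked by the scanner software and well above background on both arrays. Probes printed 10 times gave a technical yardstick. Their log2 difference had a median SD over the copies of 0.14 below a signal of 300, 0.071 between 300 and 3000, and 0.072 above 3000. The scanner software's own error of a spot was larger, between 10.0% and 12.9% of the signal for these 16 readings, or 0.20 to 0.25 for the log2 difference of a gene. Levels of different probes were not compared with each other, since probes differ in brightness for the same amount of RNA.

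Among the activating receptors of the Dectin-2 cluster, Clec4e was higher, Clec4d was level and Clec4n was lower with GW4064. Clec4e encodes Mincle, a receptor for mycobacterial cord factor and for a protein released by dying cells. The signal of its probe (transcript NM_019948) was 110 with DMSO and 261 with GW4064. This was a log2 difference of 1.19, or 2.28-fold higher, which was 8.46 times the SD over copies at that signal and the 212th highest of the 13533 genes. The scanner software's error of the difference was larger than that SD, at 0.212. The spot lay in an uneven patch of the slide, that is, near at least 2 others whose signal differed 8-fold or more. Of the 60 spots within 300 µm, 2 differed 8-fold or more, both brighter on the GW4064 array, with signals of 4.03 and 69.3 at one and 4.04 and 36.0 at the other. The median log2 difference of the 28 measured spots around it was 0.055. The part of the patch in the Clec4e signal was not tested, no value for Clec4e was obtained when spots in such patches were left out, and the log2 difference was 0.68 after a normexp background correction.

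Clec4d encodes MCL, which pairs with Mincle at the surface. Its signal (NM_010819) was 21528 with DMSO and 21940 with GW4064, a log2 difference of -0.04 that was within 1 SD over copies. Clec4n encodes Dectin-2, a receptor for fungal mannans. Its signal (NM_020001) was 617 with DMSO and 439 with GW4064. The log2 difference was -0.56, or 1.47-fold lower, which was 7.79 times the SD over copies and had a scanner software error of 0.205. Clec4n therefore lay just short of the 1.5-fold threshold, while the neighbouring genes Clec4d and Clec4e were near level and higher, respectively.

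**Figure D1:**
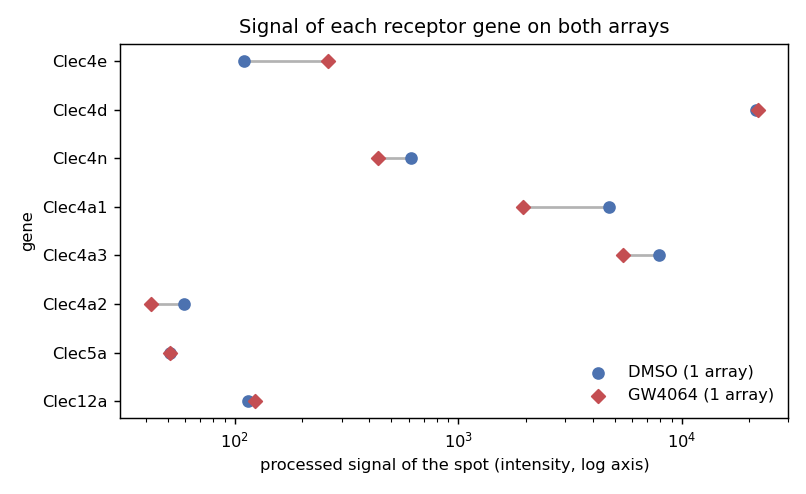
Processed signal of the spot for each of the 8 receptor genes (log axis) on the DMSO array (circles) and the GW4064 array (diamonds), 1 array each. Clec4e is higher with GW4064, Clec4n and the Clec4a genes are lower, and both symbols nearly coincide for Clec4d, Clec5a and Clec12a.

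All 3 Clec4a genes were lower with GW4064. Clec4a1 (DCIR4) belongs to the DCIR group of receptors without an inhibitory motif. Its signal (NM_199311) was 4715 with DMSO and 1954 with GW4064. This gave a log2 difference of -1.34, or 2.53-fold lower, 18.6 times the SD over copies at that signal. The scanner software's error of the Clec4a1 difference was larger than that SD, at 0.204. Among all 13533 genes Clec4a1 was the 213th lowest. Of the 5703 genes whose mean level lay above the 75th percentile of the arrays, where 0.158% were 2-fold or more lower, none was lower than Clec4a1. It held this place under 10 of the 11 other settings and was second when spots marked by the scanner software were kept, and this place among bright genes was counted after the values had been seen. One of the 57 spots within 300 µm of it differed 8-fold or more, being brighter on the DMSO array (27.1 against 3.21), and the 30 measured spots there had a median difference of 0.014.

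Clec4a3 (DCIR3), likewise without an inhibitory motif, had a signal (NM_153197) of 7938 with DMSO and 5432 with GW4064. The log2 difference was -0.61, or 1.53-fold lower, 8.54 times the SD over copies and the 38th lowest of the 5703 bright genes. Its scanner software error was larger than that SD, at 0.204. Among all 13533 genes Clec4a3 was the 709th lowest. One of the 56 spots within 300 µm differed 8-fold or more, being brighter on the GW4064 array (74.0 against 3.99), and the 34 measured spots there had a median difference of 0.115. The part of such spots in the Clec4a1 and Clec4a3 signals was not tested. Clec4a2 encodes DCIR, the inhibitory receptor of the group. Its probe was assigned to NM_001170333, 1 of 6 RefSeq transcripts of the gene, and was dim, at 59.2 with DMSO and 41.9 with GW4064. The log2 difference was -0.56, or 1.48-fold lower and 4.01 times the SD over copies, and the difference was -0.20 after the normexp correction. The scanner software's error of the Clec4a2 difference was larger than that SD, at 0.253. The Clec4a genes are close relatives, and whether a probe also binds RNA of a relative was not tested, because probe sequences were not used here.

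Outside the Dectin-2 cluster, Clec5a and Clec12a hardly differed between the arrays, and Clec7a had no value. Both were read by dim probes, with a scanner software error of the difference of 0.242 for Clec5a and 0.212 for Clec12a. Clec5a, the DAP12-coupled receptor known for binding flaviviruses, had a signal (NM_001038604) of 51.1 with DMSO and 51.3 with GW4064. Its log2 difference was -0.06, which is 0.43 times the SD over copies. Clec12a, an inhibitory receptor for uric acid crystals, had a signal (NM_177686) of 114 with DMSO and 123 with GW4064, a log2 difference of 0.04 or 0.29 times that SD. The signs of these differences depended on the scaling. Clec12a was at -0.13 with spike-in centring, which sets the RNA added in known amounts to be equal on both arrays, Clec5a at 0.04 after quantile normalization, and Clec4d at 0.03 after the normexp correction.

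**Figure D2:**
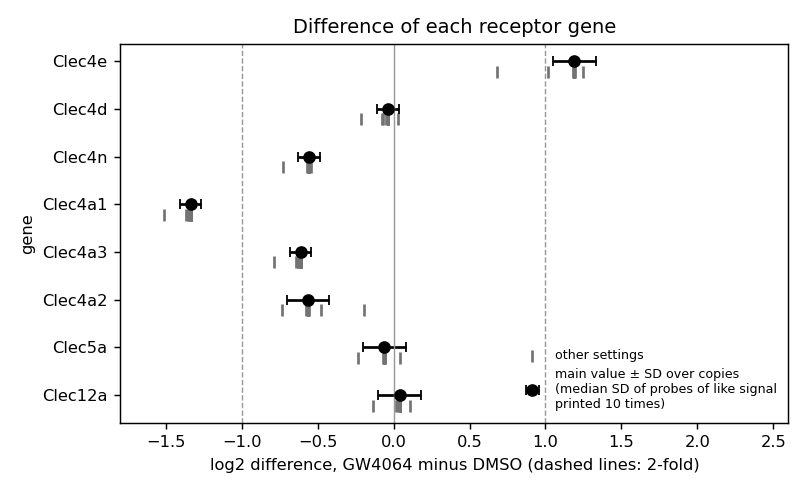
Log2 difference, GW4064 minus DMSO, of each receptor gene. Points are the main values, bars the median SD over copies of probes with like signal (0.14, 0.071 or 0.072), grey ticks the values under other settings, and dashed lines 2-fold. Only Clec4e and Clec4a1 lie past 2-fold, and Clec4e moves most between settings, down to 0.68.

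Of the 8 genes measured, 1 (Clec4e) was 1.5-fold or more higher and 2 (Clec4a1 and Clec4a3) were 1.5-fold or more lower, where 4.39% of all genes were that much higher and 5.56% that much lower. At 2-fold, 1 was higher (Clec4e) and 1 lower (Clec4a1), against 2.04% and 2.71% of all genes. The median log2 difference of the 8 was -0.31, against 0.0069 over all genes. Of all genes past 2-fold, 42.9% were higher. With spike-in centring this share was 30.2% and the median of all genes moved to -0.17. Clec4n and Clec4a2 were then past 1.5-fold too, so that 4 of the 8 were lower by that much, where 8.15% of all genes were.

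**Figure D3:**
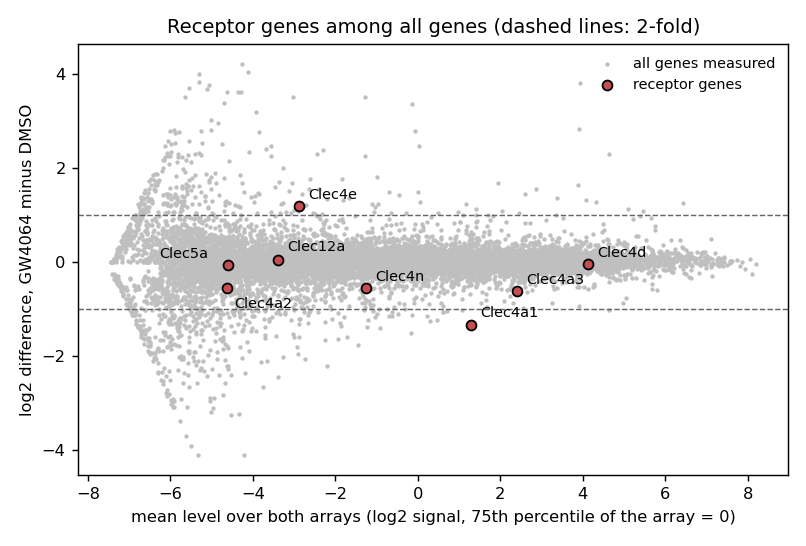
Log2 difference, GW4064 minus DMSO, against the mean log2 level over both arrays (75th percentile of each array at 0) for all genes measured (grey) and the 8 receptor genes (red), with dashed lines at 2-fold. Clec4a1 lies below all other genes to the right of 0, and dim genes at the left scatter widely, with genes measured on 1 array only drawn at their bound.

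The 8 genes lie on chromosome 6, and 6 of them are neighbours in the Dectin-2 cluster. In the RefSeq order of GRCm38.p6, this cluster runs Clec4a1, Clec4a3, Clec4a4, Clec4b1, Clec4a2, Clec4b2, Clec4n, Clec4d and Clec4e. The array was designed on mm9, an earlier build, so that only the gene order is given. Clec4a4 (DCIR2, an inhibitory receptor) had a signal of 140 with DMSO and 79.5 with GW4064, a log2 difference of -0.89. Clec4b1 (DCAR, which couples to FcRγ) had 2 probes at -0.70 and -0.63, of which the first lay in an uneven patch. Neither array had Clec4b2 well above background. Thus each of the 6 measured genes from Clec4a1 to Clec4n was lower, by -0.56 to -1.34, and the last genes of the row, Clec4d and Clec4e, were not. Of all 13533 genes, 6521 were below 0. Beside the Clec4a1 end of the cluster, Foxj2 was at 0.02, C3ar1 at -0.29 and Necap1 at 0.01. Beside the Clec4e end, Vmn2r19 and Vmn2r20 were not above background and Vmn2r21 had no matched probe. These flanking genes were chosen after their values were seen.

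**Figure D4:**
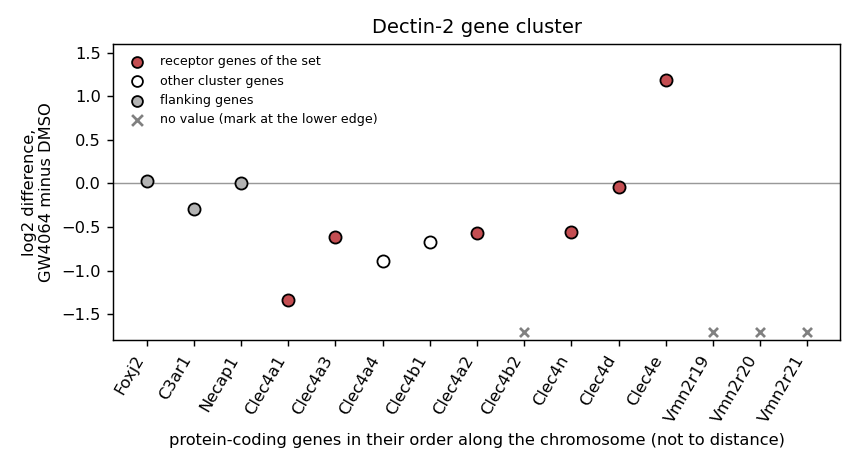
Log2 difference, GW4064 minus DMSO, of protein-coding genes in their order along chromosome 6 at the Dectin-2 cluster, with receptor genes in red, other cluster genes in white, flanking genes in grey and crosses at the lower edge for genes without a value. The measured genes from Clec4a1 to Clec4n lie between -1.34 and -0.56, Clec4d near 0 and Clec4e at 1.19.

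In the Dectin-1 cluster, where Clec12a and Clec7a lie, the other genes differed among themselves. Olr1, a receptor for oxidised LDL, had a signal of 74.3 with DMSO and 118 with GW4064, a log2 difference of 0.60, and Clec1a was at 0.50. The 3 probes for Clec1b disagreed, at -0.65, 0.19 and 0.31. Clec9a and Clec12b were below the background limit on both arrays. Of 15 other genes listed with the clusters, 8 were measured, with a median of -0.11. Of these, 1 was 1.5-fold or more higher (Olr1) and 3 lower (Clec4a4, Clec4b1 and Clec2g), against 4.39% and 5.56% of all genes. The list also took in genes outside the run from Clec12a to Olr1, of which Clec2d, Clec2g and Gabarapl1 were measured. After normexp 0 were 1.5-fold or more higher and 1 lower, where 1.65% and 2.31% of all genes were. With spike-in centring 0 were higher (3.07% of all genes), and without the filter on dim probes 4 were (6.16%). Clec2g was at least 1.89-fold lower, being not well above background with GW4064, and its spot lay in an uneven patch of the slide.

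The signalling genes behind the receptors had medians closer to level than the receptors, in a comparison not matched for brightness. Of genes above the 75th percentile 0.754% were 1.5-fold or more lower, against 9.05% of those below it. Fcer1g, Tyrobp and Syk lay above it, and Clec4n, Clec4e, Clec4a2, Clec5a and Clec12a below it. Fcer1g had a log2 difference of -0.04 (signals 118647 and 120379), Tyrobp -0.0075 (209471 and 218097) and Syk 0.04 (17141 and 18381). The Tyrobp spot lay in an uneven patch of the slide. Of 9 adaptors and proximal kinases, 1 was past 1.5-fold, namely Src, at 15.7 with DMSO, the lowest signal that counted as well above background there, and 38.2 with GW4064. After normexp 0 of the 9 were past 1.5-fold higher. Of all genes, 4.39% were that much higher in the main setting and 1.65% after normexp. The median of these 9 genes was 0.03, and -0.14 with spike-in centring. Card9 was at -0.12, from a dim probe (109 and 105). In its list of 16 signal relays, 15 were measured, none was past 1.5-fold in either direction and 13 were below 0, with a median of -0.11. Of all 13533 genes, 6521 were below 0, 4.39% were 1.5-fold or more higher and 5.56% lower. The lowest of the relays was Vav3, a guanine nucleotide exchange factor, at -0.44. Of 11 genes that restrain the receptors, including Ptpn6 at -0.04, none was past 1.5-fold and the median was -0.04, turning to 0.03 without uneven patches. With spike-in centring 1 of the relays and 1 of the restraining genes were lower by 1.5-fold or more, where 8.15% of all genes were.

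Genes that these receptors are known to switch on did not move in 1 direction. Of 21 such genes 12 were measured, of which 1 was 1.5-fold or more higher and 1 lower, and the median was 0.0012, or -0.17 with spike-in centring. Il1b was higher, with signals of 20.7 and 81.1, a log2 difference of 1.91 over 10 spots, and 1.87 without the 3 of them in uneven patches. Il10 was lower, with a mean signal over the unmarked spots of its probe of 45.5 with DMSO and 16.8 with GW4064, where the probe was not well above background. After normexp 0 of these genes were lower by 1.5-fold, and without the filter on dim probes 4 were higher. Of all genes, 4.39% were 1.5-fold or more higher and 5.56% lower. The share lower was 2.31% after normexp, and the share higher was 6.16% without the filter. Tnf was at 0.0014. Of 18 other receptors for fungi 16 were measured, with a median of 0.02, or -0.12 with spike-in centring. Marco, a scavenger receptor, was the single one past 1.5-fold, with signals of 127 and 245 and a log2 difference of 0.89. Mrc1, the mannose receptor, was at -0.34 and Tlr2 at -0.35.

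**Figure D5:**
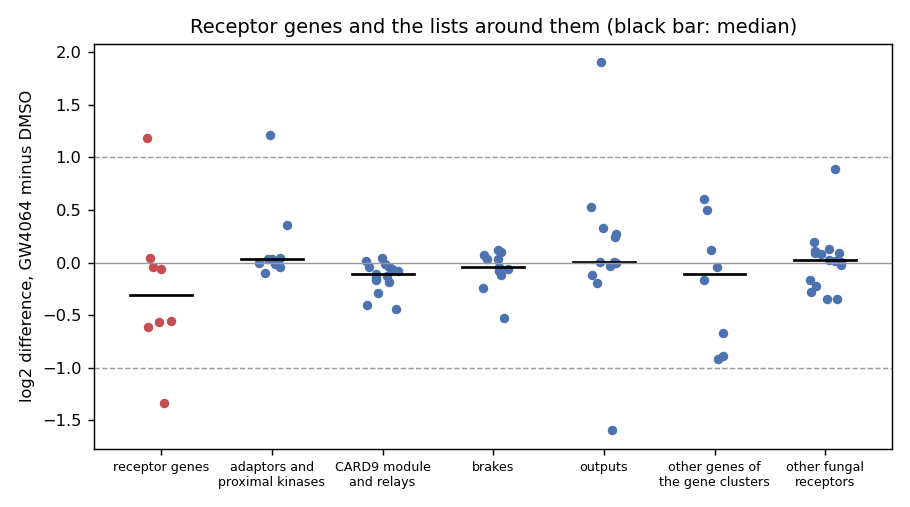
Log2 difference, GW4064 minus DMSO, of each measured gene in the receptor set (red) and in 6 lists around it (blue), with black bars at the medians and dashed lines at 2-fold; genes measured on 1 array only are drawn at their bound. The receptor genes have the lowest median (-0.31), and the medians of the lists lie between -0.11 and 0.03.

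The cells carried macrophage markers, of which 9 of 10 were measured and none was past 1.5-fold, with a summed signal of 496940 with DMSO and 464594 with GW4064. Among dendritic cell markers, Xcr1, Clec9a, Btla and Dpp4 did not stand well above background on either array, and neither did Cd3d, Cd79a and Ncr1 among lymphocyte markers. Several lists of other cells were lower with GW4064, as the Clec4a genes were. Of 8 measured neutrophil markers 7 were below 0 and 4 were 1.5-fold or more lower, their summed signal going from 14370 to 9476, with Retnlg not above background. Of all 13533 genes, 6521 were below 0 and 5.56% were 1.5-fold or more lower. Of 6 measured monocyte markers 5 were below 0 (summed signals 1093 and 758), F13a1 being the lowest at -1.86. All 7 measured stromal markers were below 0 (summed signals 37678 and 21036), and Lum was not above background. In RNA from a whole culture, fewer cells of a type and less RNA per cell cannot be told apart, and the part of such cells in the lower Clec4a signals was not tested.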

How the data were processed

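RNA from BMDMs under M2 conditions was measured on 1 Agilent array with DMSO and 1 with GW4064, and samples were grouped by the treatment label. The authors deposited the intensity of each spot from Agilent Feature Extraction 10.7.1.1, background-subtracted and detrended within the array but not scaled between arrays, and its error. A second deposited table gives log2 values of both arrays, and its normalization is not given in the sources used here. The columns had medians of 0.035 and -0.051, and their difference matched that of the intensities for all 39200 probes within 0.001 after an offset of 0.0022. Its centring per probe is unknown.

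From each log2 intensity the 75th percentile of its array, taken over 43020 non-control spots, was subtracted. Non-uniform spots and outliers among copies, as marked by the software (399 with DMSO, 207 with GW4064) were left out, no spot was saturated, and copies were averaged. A probe was well above background where most of its spots, or as many as not, were marked so. That held for 57.4% of probes with DMSO and 58.5% with GW4064. On an array where it was not, the dimmest level well above background there replaced a value below it, which makes the difference a bound. Probes above background on neither array were left out. A gene is the mean of its remaining probes. Names came from RefSeq accessions of GRCm38.p6 without versions, which matched 26581 probes, and probes with other accessions were not named. A spot was taken to lie in an uneven patch where at least 2 others within 300 µm differed 8-fold or more between the arrays.

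The named genes were all 9 receptors, the genes of each list that differed 1.5-fold or more, and Fcer1g, Tyrobp, Syk and Card9. Others were named as examples or neighbours after their values were seen. The members and lists were chosen with earlier results of these data known. In a simulated comparison of GW4064 with DMSO over 39228 probes, 200 of 200 probes changed 4-fold were recovered at 2-fold and 0 others were past it. The changed probes were drawn from those with a DMSO signal above 200 and well above background on both arrays. All spots had noise of the same size, the background marks were those of the DMSO array, and no uneven patches were simulated. The simulation thus checks the calculation only, and not how well dim probes such as that of Clec4e are resolved. No test was run, since precision is limited by having 1 array per condition. The 11 alternatives covered scaling (quantile, median, loess with span 0.3, spike-in), normexp (offset 50, median intensities), the deposited table, marked spots, uneven patches, the filter on dim probes and the brightest probe. Normexp came from limma 3.58.1 in R 4.3.3. All other steps ran in Python 3.11.15 with pandas 2.3.3 and numpy 2.4.6, loess with statsmodels 0.14.6, neighbour search with scipy 1.17.1 and plots with matplotlib 3.10.9.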

Additional observations from a re-analysis of the deposited data

How the results depend on the processing

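No paired analysis was possible because DMSO and GW4064 are 1 array apiece. Under the 11 alternatives, Clec4a1 (-1.51 to -1.33), Clec4a3 (-0.79 to -0.61), Clec4n (-0.73 to -0.55) and Clec4a2 (-0.74 to -0.20) kept their direction, as did Clec4e (0.68 to 1.25) under the 10 that gave it a value. Centred on the spike-in RNA, which lowers all values, Clec4n was at -0.73, Clec4d -0.21, Clec4e 1.02, Clec4a1 -1.51, Clec4a2 -0.74, Clec4a3 -0.79, Clec5a -0.23 and Clec12a -0.13. The median of the 8 genes was then -0.48, with 4 lower by 1.5-fold or more. The list medians were -0.14 for adaptors, -0.28 for signal relays, -0.21 for restraining genes and -0.17 for outputs. They were -0.28 for the other genes listed with the clusters and -0.12 for other fungal receptors. After normexp, Clec4e was at 0.68, Clec4a2 at -0.20 and the median at -0.13, and 0 receptor genes were 2-fold higher. Without uneven patches Clec4e had no value, the median of the other 7 was -0.56, and 0 were higher by 1.5-fold or by 2-fold. With the brightest probe of each gene, the median of the other genes listed with the clusters was -0.020. Over all genes, 594 were 1.5-fold or more higher and 752 lower. These counts were 223 and 313 after normexp, 382 and 493 without uneven patches, 1236 and 1426 without the filter, and 304 and 432 for probes above background on both arrays. At 2-fold, 276 were higher and 367 lower, against 72 and 64 after normexp, 168 and 202 without uneven patches, 698 and 767 without the filter, 107 and 164 for probes above background on both arrays, and 495 each way in the deposited table, which has no bounds. The share of higher genes among those past 2-fold was 52.9% after normexp. Signals under 300, as for Clec4e, Clec4a2, Clec5a and Clec12a, limit what can be resolved, and the other causes of these shifts were not tested.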
